A study of Drosophila melanogaster with 6 samples.

Results

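The body of chromosome arm 2L is the left arm of the second chromosome of Drosophila melanogaster without 1 Mb at its telomere and 1.5 Mb at its centromere. It was taken by position alone, as all windows of 2L that start at 1000001 or later and end at 21500000 or earlier, counted as in the deposited files. Of 8197 such windows, 8132 had reads in at least 1 library and are described here, out of 53434 windows with reads in the whole series. Each window is 10 kb wide and a new one starts every 2.5 kb, so neighbouring windows share reads and are no replicates of each other.

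The windows come from Kc cells, a Drosophila line derived from embryos of a late stage, labelled wild type, female and of genotype se/e. All 3 groups are growing cells of this line that took up 50 µg/ml BrdU, a thymidine analogue built into new DNA, for 1 hour. They were fixed in ethanol and sorted by DNA content into 3 fractions of S phase, named here Early S, Mid S and Late S. DNA carrying BrdU was recovered with an antibody and sequenced on an Illumina instrument. The fraction of Mid S replicate 1 is given by its title alone. There were 2 libraries per fraction, and nothing in the labels says that they came from separate cultures, so p-values measure only how far these libraries differ among themselves, possibly for technical reasons.

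DNA replication starts at many origins along a chromosome, and groups of neighbouring origins fire at characteristic times of S phase. In fly cells, early replication is known to go with active, gene-rich euchromatin and late replication with repressed chromatin. Label in a sorted fraction marks DNA that was being copied in cells of that DNA content, so a region rich in label in Early S is read as early replicating. No annotation of the files' genome build was used here, so regions are given by position without gene names or sequence.

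Each library held 1384200 to 2936097 reads, and the median window of the 2L body held 108 to 208 reads per library. Values are RPKM, reads scaled to window length and to library size. The median 2L body window had Early S at 5.93 and 5.71 RPKM, Mid S at 7.42 and 7.42, and Late S at 7.81 and 7.80. Replicates agreed closely along the arm. Between replicates, log2 values correlated at 0.975 (Early S), 0.938 (Mid S) and 0.937 (Late S), and the Early S minus Late S difference at 0.969 (Pearson's r over 8132 overlapping windows, a description only).

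Early and late replicating stretches alternated along the whole 2L body, and more of it was late than early. In Early S against Late S, 36.7% of its windows (2986) had more label in Early S and 49.0% (3985) had more in Late S, by limma on log2 values with a Benjamini-Hochberg adjusted p below 0.05 over all windows of the series. The background over all 53434 windows was 37.6% for Early S and 44.2% for Late S, so the Early S share of 2L lay near it and the Late S share lay above. In the same order the shares were 44.8% and 40.1% on the X body, and 41.1% and 45.4% on the 3L body. The 3R body, with 35.9% and 47.6%, was close to 2L. The remaining 14.3% of 2L windows were not called, and the smallest called difference was 0.33 on the log2 scale. The Early S minus Late S difference had a median of -0.35, with -3.01 at the 10th and 1.84 at the 90th percentile of windows. Over all windows of the series the median was -0.23, against which differences near 0 are to be read.

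**Figure D1:**
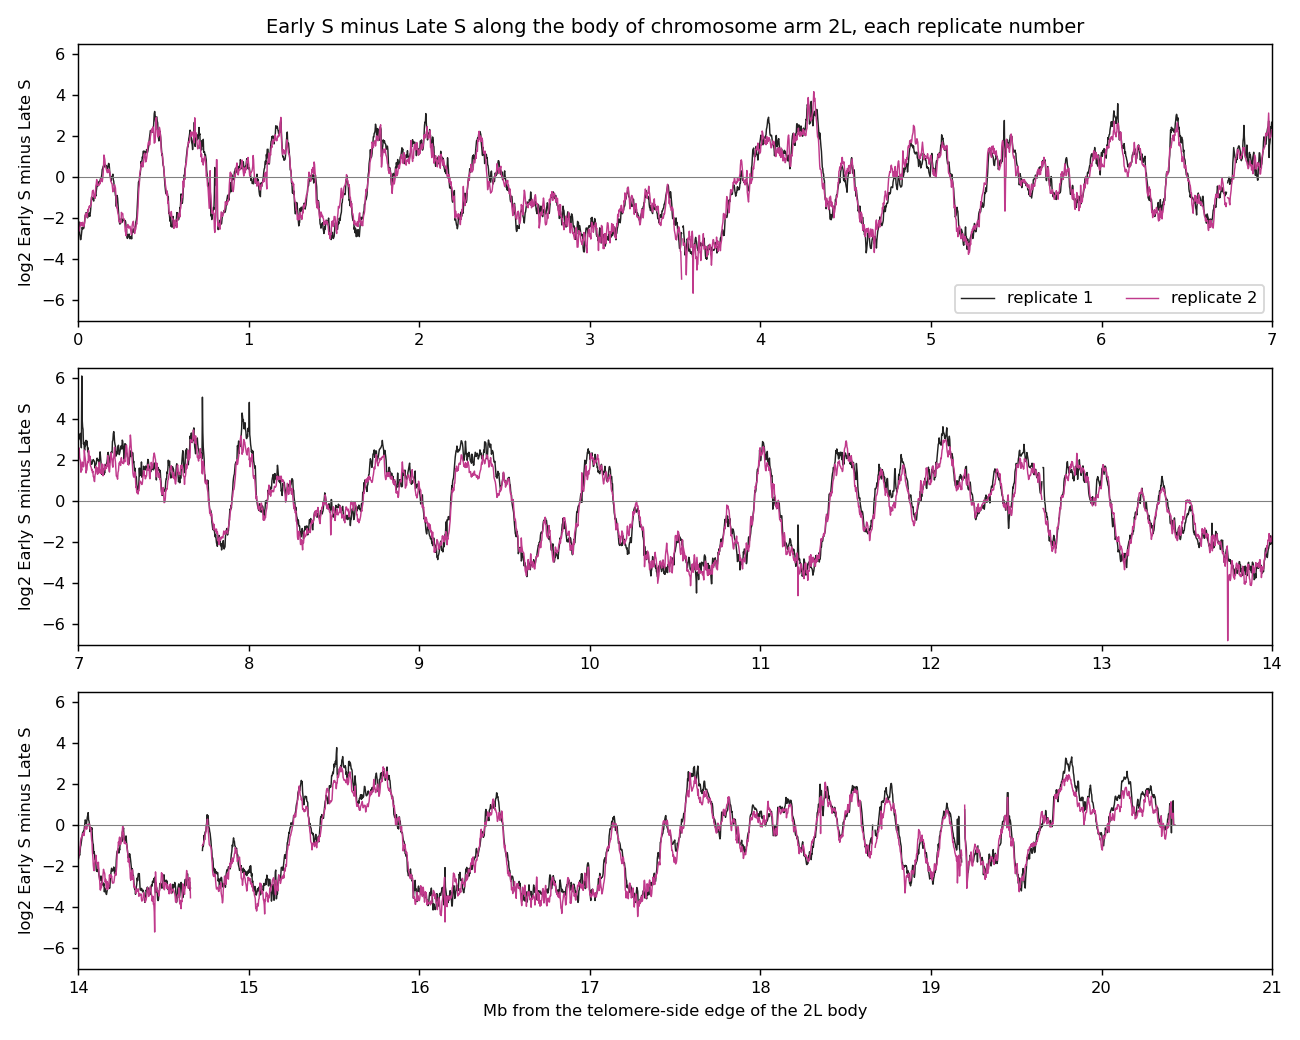
Early S minus Late S on the log2(RPKM + pseudocount) scale in each window of the 2L body, against the distance in Mb from its telomere-side edge, in 3 rows from telomere side to centromere side. Lines are replicate 1 (black) and replicate 2 (magenta), with breaks where no window had reads; the replicates follow the same peaks and troughs, and the broad troughs lie mostly in the lower 2 rows.

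More windows of 2L were above Early S in the Mid S libraries than below it. Against Mid S, 19.6% of 2L windows (1595) had more label in Early S and 51.0% (4146) had more in Mid S, beside 20.5% and 43.5% over all windows (limma). The Mid S share was 42.1% on the X body, 47.1% on 3L and 50.2% on 3R, so 3R was close to 2L here too. The Mid S libraries had the highest median windows of the series, and the split rests on the scaling between libraries. After quantile normalization, which gives all libraries the same distribution, the shares were 18.1% for Early S and 24.4% for Mid S. Centring each library on its median gave 30.9% and 40.6%. These scalings move the median Early S minus Mid S difference of all windows by 0.22 and 0.32. The Early S share was also 12.5% without Early S replicate 1, 10.6% without Early S replicate 2, 10.8% without Mid S replicate 1 and 10.9% without Mid S replicate 2. In the comparison of Mid S with Late S, 37.6% (3059) of 2L windows had more label in Mid S and 33.7% (2743) had more in Late S, beside 38.7% and 26.9% over all windows. Which of these shares was larger depends on the scaling and the libraries. Quantile normalization gave 35.3% for Mid S and 37.9% for Late S, and centring gave 30.5% and 38.9%. Without Mid S replicate 1 they were 23.0% and 23.3%, and without Mid S replicate 2 they were 24.7% and 24.9%.

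Ranked by their means over replicates, Late S led in 46.0% of 2L windows, Early S in a further 33.9% and Mid S in the remaining 20.2%. Late S was called above both other fractions in 33.6% (2732), Early S in 19.5% (1584) and Mid S in 2.10% (171). Over the series these called shares were 26.7%, 20.4% and 2.43%. After centring on library medians, Mid S led in 7.98% of 2L windows and Early S was called above both in 30.2%, so the Mid S class depends on scaling. Without 1 of the Early S or Mid S libraries, the windows called highest fell to between 10.5% and 12.5% for Early S and between 0.271% and 1.16% for Mid S.

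The windows called highest in Mid S held Early S at 7.22 and 6.76 RPKM, Mid S at 10.8 and 10.5, and Late S at 7.22 and 7.15 (medians over the 171 windows, chosen by these calls). Both Mid S medians lay above all 4 others, and the Early S minus Late S difference of these windows ran from -0.70 to 0.48. They lay in 62 short runs, a description that rests on the calls. The longest covered 37.5 kb, from 6520001 to 6557500, with Early S at 6.21 and 6.21 RPKM, Mid S at 9.96 and 9.49, and Late S at 7.09 and 7.18. The next were 35 kb from 13932501 to 13967500, with 11.1 and 11.1 RPKM in Mid S, and 32.5 kb from 13422501 to 13455000, with 11.5 and 12.0. Both of the latter lie in the megabase from 13000001, the second earliest of the arm.

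The timing of 2L was set against the bodies of X, 3L and 3R, trimmed by the same lengths. Median log2 values of 2L minus those of X put Early S at -0.27 and -0.30, Mid S at -0.06 and -0.03, and Late S at 0.26 and 0.18. So 2L was below X in both Early S libraries and above it in both Late S libraries, with Early S minus Late S of -0.51 ± 0.057 (combined SD of the Early S and Late S libraries, n = 2 per fraction). The same for 3L put Early S at -0.30 and -0.32, Mid S at -0.16 and -0.17, and Late S at -0.01 and -0.04, a difference of -0.29 ± 0.024. Against 3R they gave -0.26 and -0.23, -0.22 and -0.20, and -0.11 and -0.10 in the same order, a difference of -0.14 ± 0.022.

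The ordering of the fractions was tested with all 90 arrangements of the libraries (exact permutation, two-sided). Each of the 3 comparisons had p = 0.0222 by this exact permutation, the smallest that this design allows, and an adjusted p of 0.0222. In all 3, 2L lay lower in Early S than in Late S relative to the other arm. None of the 3 passed after quantile normalization, where the differences were -0.42, -0.19 and -0.063 with adjusted p of 0.0667, 0.200 and 0.667 (exact permutation). The difference from 3R was the smallest under both scalings. Relative to each library's median window the 2L body itself had Early S at -0.10 and -0.09, Mid S at -0.07 and -0.06, and Late S at 0.22 and 0.14. Its Early S minus Late S was -0.28 ± 0.061 (exact permutation p = 0.0222). That value was -0.17 with means in place of medians and -0.42 without centring, both with the same p. It was -0.25 with the ends of the arm included (same p), and also -0.25 after quantile normalization, where the exact permutation p was 0.133.

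**Figure D2:**
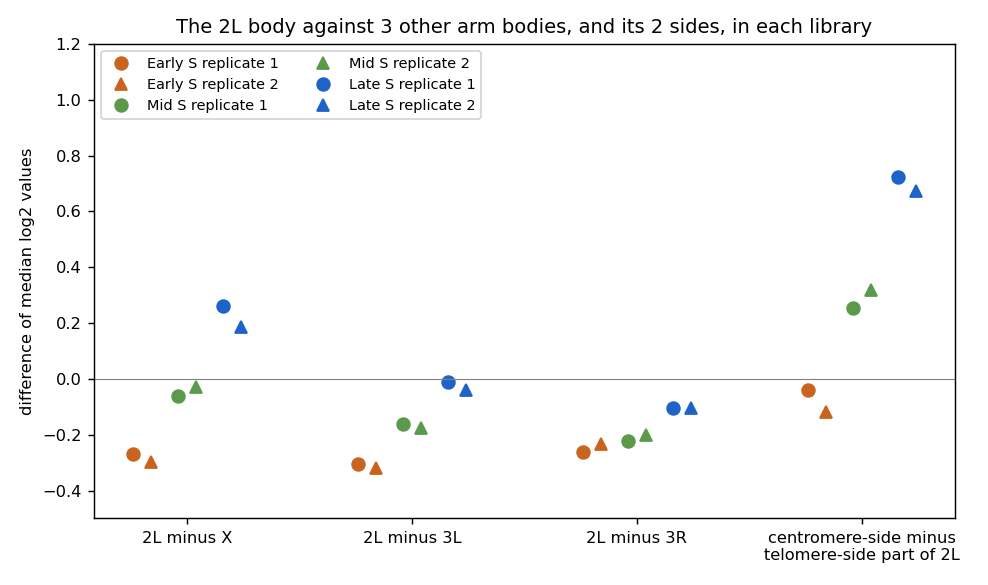
Difference of median log2(RPKM + pseudocount) between the 2L body and the bodies of X, 3L and 3R, and between the centromere side and the telomere side of the 2L body, with 1 point per library (circles replicate 1, triangles replicate 2). In each comparison the Early S points (orange) lie below the Late S points (blue), by 0.78 on average between the sides of 2L.

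The late windows of 2L lay more on its centromere side. The body was divided at its midpoint, 11250000. On the telomere side the median window had Early S at 5.99 and 5.92 RPKM, Mid S at 6.96 and 6.71, and Late S at 6.09 and 6.29. On the centromere side it had Early S at 5.82 and 5.44, Mid S at 8.32 and 8.38, and Late S at 10.1 and 10.0. Early S of the median window thus differed little between the sides, and both Late S libraries were well above on the centromere side. These medians mix early and late windows, so they do not show a rise of Late S alone. Label summed over the fractions had a median of 19.7 RPKM before 10 Mb and 25.9 beyond. In windows called higher in Early S, Early S went from 10.0 and 10.4 RPKM before 10 Mb to 14.2 and 13.8 beyond. In windows called higher in Late S, Early S went from 3.00 and 2.69 to 2.90 and 2.54.

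The log2 medians of the centromere side minus the telomere side put Early S at -0.04 and -0.12, Mid S at 0.26 and 0.32, and Late S at 0.72 and 0.67. The Early S minus Late S value was -0.78 ± 0.066 (exact permutation p = 0.0222, the smallest possible), and it kept that p after quantile normalization (-0.76). Windows called higher in Late S made up 42.6% of the telomere side and 55.5% of the centromere side, and those called higher in Early S 42.8% and 30.6%. The late windows were also more extreme on the centromere side, where the 10th percentile of Early S minus Late S was -3.26 against -2.39.

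Along 21 consecutive segments of 1 Mb (the last of them shorter), timing swung back and forth several times. Of these, 14 passed the test of the order early, mid, late with an adjusted p of 0.0333 (exact permutation over 90 arrangements, Benjamini-Hochberg over 21 segments), 7 of them on the Early S side and 7 on the Late S side. Leaving out 1 library leaves fewer arrangements. The adjusted p of the segments then lay near, at or above the threshold, so the test can hardly decide there. Without a Mid S library no segment can pass, because the smallest possible p lies above the threshold. In the other cases the outcome depended on which library was left out. The latest was the segment from 17000001 to 18000000. Its median window had Early S at 1.98 and 1.80 RPKM, Mid S at 4.68 and 5.60, and Late S at 15.7 and 15.2. Early S minus Late S, relative to the library medians, was -2.87 ± 0.0995 there, and 88.7% of its windows were called higher in Late S.

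The segment from 15000001 to 16000000 came next, with Early S at 2.76 and 2.22 RPKM, Mid S at 6.03 and 6.81, and Late S at 13.8 and 13.6. Its difference was -2.31 ± 0.187, 91.9% of its windows were called higher in Late S, and Early S led in 0 of its 371 windows. The segments from 11000001 (-1.94 ± 0.189), 4000001 (-1.87 ± 0.148), 14000001 (-1.46 ± 0.167), 3000001 (-0.77 ± 0.145) and 10000001 (-0.60 ± 0.114) were the other late ones that passed. Of the 7, 4 start at 11000001 or beyond, which is near the share of all segments that do so.

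The earliest segment ran from 8000001 to 9000000. It had Early S at 11.1 and 10.9 RPKM, Mid S at 7.25 and 6.96, and Late S at 3.02 and 3.97, a difference of 1.80 ± 0.222, with 83.9% of windows called higher in Early S. The segment from 13000001 to 14000000 had Early S at 11.5 and 11.8 RPKM, Mid S at 10.0 and 9.66, and Late S at 5.71 and 6.25, a difference of 1.10 ± 0.075. The others that passed on the Early S side were those from 21000001 (0.99 ± 0.181), 16000001 (0.74 ± 0.130), 7000001 (0.63 ± 0.088), 5000001 (0.63 ± 0.210) and 9000001 (0.32 ± 0.045). Some early and late segments adjoin, as at 16000001 to 18000000, where an early megabase is followed by the latest of the arm.

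The remaining 7 segments did not pass. Those from 1000001, 2000001, 12000001 and 19000001 had differences between -0.03 and -0.01, and the Early S and Late S libraries overlapped in each. The segment from 6000001 had 0.09 ± 0.048, and Mid S led in 40.3% of its windows. The segments from 18000001 (-0.40 ± 0.063, adjusted p 0.0622) and 20000001 (-0.25 ± 0.039, adjusted p 0.146, both by exact permutation) had both Late S libraries above both Early S libraries, but Mid S overlapped Early S in the former and Late S in the latter.

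**Figure D3:**
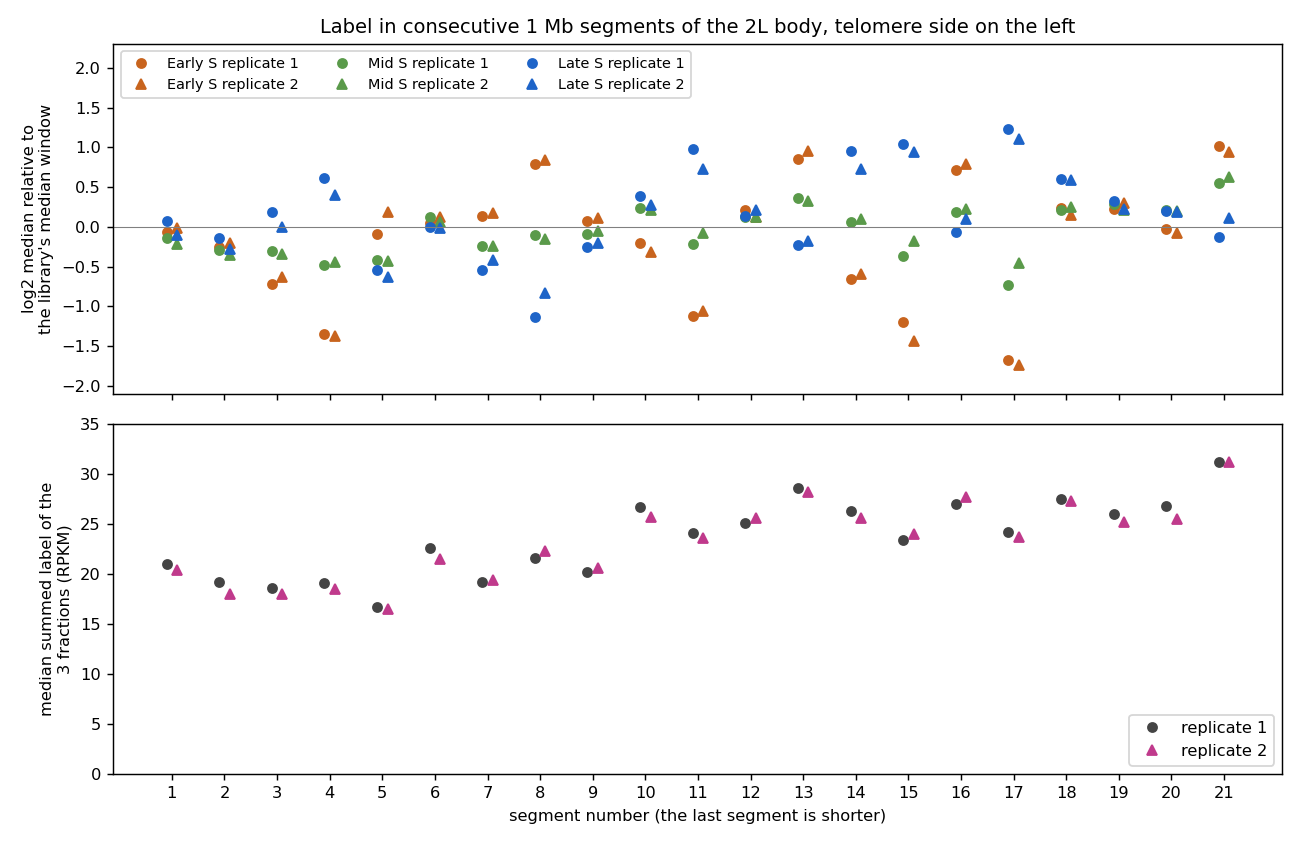
Upper panel, median log2 value of each library in consecutive 1 Mb segments of the 2L body relative to that library's median window; lower panel, median summed label of the 3 fractions in RPKM for each replicate number. Early S (orange) and Late S (blue) change places repeatedly, with the widest gap in segment 17, and the summed label is higher from segment 10 on.

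Windows of like timing lay together in blocks. A block is a run of called windows of one direction with a log2 difference of at least 1, joined over gaps of at most 2 windows. Blocks are made from the calls, so their differences are given as a description, with no test. The 2L body held 73 early blocks covering 5.76 Mb (28.1% of it) and 58 late blocks covering 8.64 Mb (42.2%). Median lengths were 45 kb for early and 101 kb for late blocks. In the bodies of X, 3L and 3R, late blocks covered 33.1%, 37.4% and 37.6%, and early blocks 35.7%, 33.5% and 25.6%. Late blocks of at least 300 kb numbered 8 on 2L and 5 on each of X, 3L and 3R. Those of at least 200 kb numbered 12 on 2L, 8 on X, 11 on 3L and 17 on 3R, so the order of the arms depends on the limit chosen, and it was not tested.

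The 8 longest late blocks of 2L, from 367.5 to 620 kb, held 42.7% of the summed length of its late blocks, and 6 of the 8 lay on the centromere side. In all 8 the libraries kept the same order. Early S ran from 1.57 to 3.14 RPKM, Mid S from 4.27 to 6.75 and Late S from 9.65 to 16.6, so the 3 fractions did not overlap. Late S was 5.11 to 7.69 times as high as Early S.

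The longest ran for 620 kb from 17495001 to 18115000. It had Early S at 2.38 and 2.00 RPKM, Mid S at 5.20 and 5.91, and Late S at 16.6 and 15.9, a mean log2 difference of -2.99. Its neighbour on the telomere side, 450 kb from 16907501 to 17357500, was nearly alike, with Early S at 2.35 and 2.15 RPKM, Mid S at 5.04 and 6.02, and Late S at 16.0 and 15.1 (-2.93). Between these 2 blocks lies no early block of at least 5 windows. Shorter early blocks do lie there, from 17425001 to 17442500 (1.07) and from 17442501 to 17457500 (1.03).

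The block of 515 kb from 11287501 to 11802500 had Early S at 2.16 and 2.06 RPKM, Mid S at 5.12 and 5.61, and Late S at 13.9 and 13.0 (-2.78). A group of 3 followed further along the arm. The block of 480 kb from 14535001 to 15015000 had 2.65 and 2.51 RPKM in Early S against 14.9 and 14.0 in Late S (-2.61). That of 382.5 kb from 15280001 to 15662500 had 2.01 and 1.75 against 14.4 and 14.5 (-2.99), and that of 455 kb from 15775001 to 16230000 had 3.14 and 2.43 against 15.4 and 14.8 (-2.56). Between the last 2 lie 26 windows, from 15655001 to 15727500, with no reads in any library.

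On the telomere side the long late blocks were those of 420 kb from 3795001 to 4215000 and of 367.5 kb from 4460001 to 4827500. The former had Early S at 2.11 and 1.84 RPKM, Mid S at 4.45 and 4.81, and Late S at 10.5 and 9.65 (-2.40). The latter had 1.67 and 1.57, 4.27 and 4.76, and 11.5 and 10.8 in the same order (-2.95). Their Late S values were the lowest of the 8, and the former also had the smallest difference of the 8.

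Early blocks were shorter. The 8 longest ran from 177.5 to 407.5 kb, and 3 of them lay on the centromere side. Early S was 2.94 to 4.91 times as high as Late S in them. That early blocks differed less than late ones also rests on the scaling. After quantile normalization the early block from 5175001 reached 2.74, larger in size than any of the 8 longest late blocks (-2.41 at most). The longest, 407.5 kb from 16445001 to 16852500, had Early S at 15.6 and 16.2 RPKM, Mid S at 8.82 and 9.22, and Late S at 3.81 and 4.96, a mean log2 difference of 1.93. The next block of at least 5 windows beyond it is the late one that starts at 16907501.

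The block of 400 kb from 7940001 to 8340000 had Early S at 11.5 and 11.4 RPKM, Mid S at 6.31 and 6.43, and Late S at 2.46 and 3.30 (2.05). Close to it lie the block of 232.5 kb from 8515001 to 8747500, with 11.4 and 11.9 RPKM in Early S against 2.87 and 3.51 in Late S (1.95), and one of 132.5 kb from 8910001 to 9042500. In the latter the mean difference was 2.48. No early block of at least 5 windows exceeded it in the mean of both replicates. This did not hold in replicate 2 alone (2.11, against 2.31 in the block from 5175001). Nor did it hold after quantile normalization (2.69, against 2.74 in the block from 5175001). The block from 8910001 had Early S at 12.9 and 13.6 RPKM, Mid S at 5.71 and 5.77, and Late S at 1.92 and 3.12. All 3 lie at least in part in the earliest segment.

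The block of 252.5 kb from 10200001 to 10452500 had the highest Early S label among the 8 longest early blocks, 19.3 and 18.7 RPKM, Mid S at 11.7 and 12.3, and Late S at 3.86 and 6.08 (1.98). The block of 182.5 kb from 5175001 to 5357500 had Early S at 11.2 and 11.3 RPKM, Mid S at 5.33 and 5.33, and Late S at 2.07 and 2.53 (2.42). The other 3 of the longest, from 4962501 to 5147500, from 12960001 to 13145000 and from 20717501 to 20895000, had differences of 1.58, 1.99 and 1.89.

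Mid S values did not enter the difference that defines the blocks, though they share in the fitted error behind the calls. Among the 110 blocks of at least 5 windows, the Mid S value lay between Early S and Late S, within each replicate number, in 57 of 57 early and in 52 of 53 late blocks. The exception was the late block from 18875001 to 18922500, with Early S at 4.61 and 4.36 RPKM, Mid S at 10.1 and 9.92, and Late S at 9.59 and 10.7. In the exception, Mid S and Late S overlapped.

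**Figure D4:**
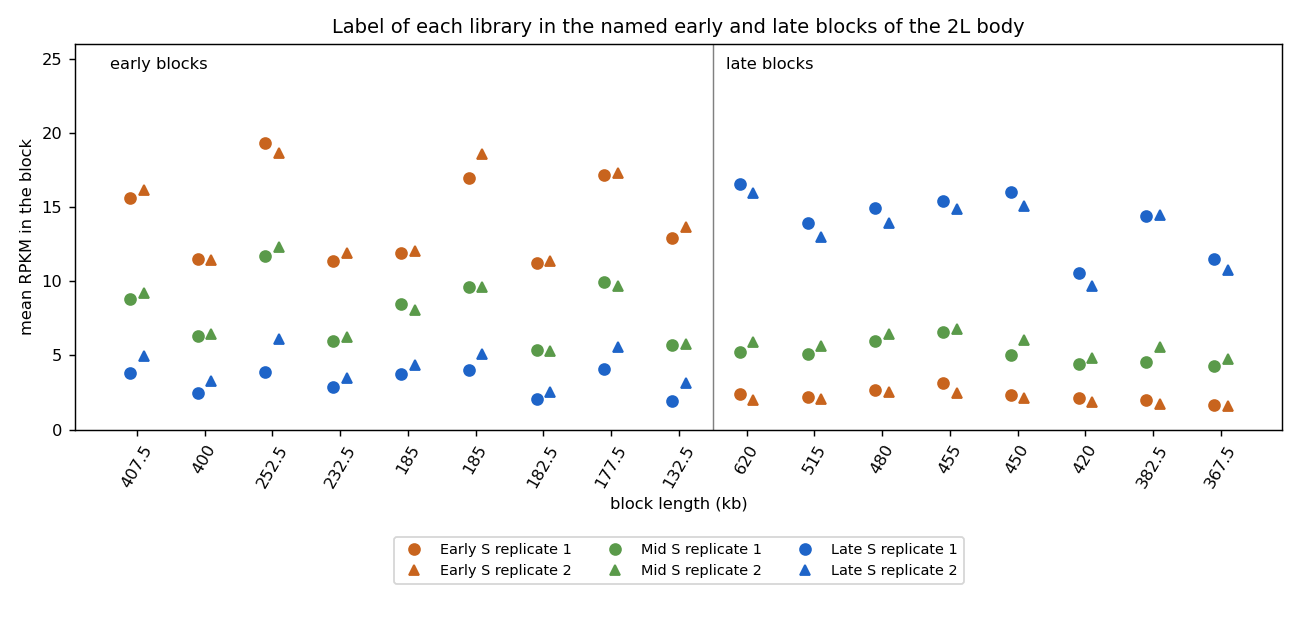
Mean RPKM of each library in the named blocks of the 2L body, early blocks on the left and late blocks on the right, each in order of length, which is given in kb below. Early S is orange, Mid S green and Late S blue, circles are replicate 1 and triangles replicate 2. In each block shown, Mid S lies between the other fractions, and Late S replicate 2 lies above replicate 1 in the early blocks.

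Runs found with 1 replicate number were then measured in the other. Runs of at least 5 windows that differed by 1 or more in replicate 1 alone numbered 57 early and 52 late. In replicate 2, all 57 and all 52 lay on the same side of 0, with 47 and 52 past a difference of 1, and medians of 1.38 and -1.84 against 1.55 and -1.91 in replicate 1. Runs found in replicate 2 numbered 57 early and 54 late, and in replicate 1 all of them lay on the same side, with 52 and 51 past 1. The 2 Late S libraries differed in a regular way. Late S replicate 2 was above replicate 1 in 48 of the 57 early blocks and in 5 of the 53 late blocks. In the longest late block the Early S minus Late S difference was nonetheless larger in replicate 2 (-3.09) than in replicate 1 (-2.89), and in the longest early block smaller (1.74 against 2.11). Without Late S replicate 1 there were 83 early blocks with 5.44 Mb and 67 late blocks with 8.52 Mb. Without Late S replicate 2 there were 89 early blocks with 6.36 Mb and 60 late blocks with 8.84 Mb.

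Blocks of one kind came in stretches. Taking the 110 blocks of at least 5 windows in order, the kind changed 49 times, which leaves 25 early and 25 late stretches. The longest late stretch ran for 2157.5 kb from 14072501 to 16230000, with 7 late blocks and no early block of at least 5 windows. Over it the libraries averaged Early S at 3.91 and 3.65 RPKM, Mid S at 6.97 and 7.38, and Late S at 13.7 and 13.2. It was followed, after the early blocks between 16277501 and 16852500, by one of 1612.5 kb from 16907501 to 18520000. This one includes the short early blocks between 17425001 and 17457500. Another ran for 1297.5 kb from 3530001 to 4827500. From first to last late block, with all that lies between, these 3 stretches covered 5.07 Mb, or 24.7% of the body. The longest early stretches were shorter, 960 kb from 7787501 to 8747500 and 952.5 kb from 12687501 to 13640000. The medians went the other way, with 237.5 kb for early and 150 kb for late stretches.

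At distances of 200 and 500 kb, timing was more alike on 2L than on the other arm bodies. Between windows 200 kb apart, timing (Early S minus Late S) correlated at 0.310 on 2L, 0.118 on X, 0.117 on 3L and 0.0321 on 3R. At 500 kb it was 0.178 on 2L and between -0.0212 and 0.00670 on the others. At 50 kb 2L (0.756) and 3L (0.762) were nearly equal, and so they were at 100 kb (0.471 and 0.480). These correlations are over 7931 to 10153 windows per arm that share libraries and reads, they are given as a description, and the difference between arms was not tested.

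At the borders the edges of early and late blocks mostly lay close together for windows of 10 kb. In 28 of the 49 borders the facing block edges were 50 kb or less apart, measured between window centres, with a median of 47.5 kb and a range from 25 to 347.5 kb. After smoothing over 9 windows, the largest change over 50 kb had a median of 2.44 on the log2 scale and ran from 1.58 to 3.72. It was at least 2 in 34 borders, and in 31 of these the steepest 50 kb of each replicate number, wherever it lay in the border, also reached 2. Blocks differ by at least 1 by definition, in opposite directions on the sides of a border. A change of about 2 between them is thus built in and does not show that borders are abrupt. Smoothing and the width of the windows set a limit on how steep a border can appear.

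The steepest border lay between 5327501 and 5377501, where the early block from 5175001 meets a late block that starts at 5375001. Across these 50 kb Early S went from 9.08 to 3.22 RPKM in replicate 1 and from 8.63 to 2.35 in replicate 2, while Late S went from 1.06 to 5.17 and from 1.36 to 4.25. The change in the mean of the replicates was 3.72. The next 4 had changes between 3.33 and 3.39. At the border from 1332501 to 1382501, Late S fell by more than in the steepest one on the linear scale, from 26.2 to 4.40 and from 23.5 to 4.97 RPKM, and Early S rose from 5.09 to 9.54 and from 4.33 to 9.03. The others lay at 7362501 to 7412501, 11940001 to 11990001 and 1485001 to 1535001.

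Averaged over the 49 borders, Early S went from 3.97 and 3.77 RPKM at 50 kb on the late side to 12.2 and 12.8 at 50 kb on the early side, and Late S from 11.0 and 9.79 to 4.53 and 5.06. Mid S was 7.49 and 7.50 on the late side and 8.19 and 8.01 on the early side, and reached 8.99 and 8.81 in the middle. There it lay above Early S (7.61 and 7.35) and Late S (6.79 and 6.82) in both replicates. The borders were placed by the Early S and Late S values, so the levels of these fractions in the middle follow in part from that choice. Mid S entered only through the fitted error behind the calls. Its height against the others rests on the scaling named above.

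**Figure D5:**
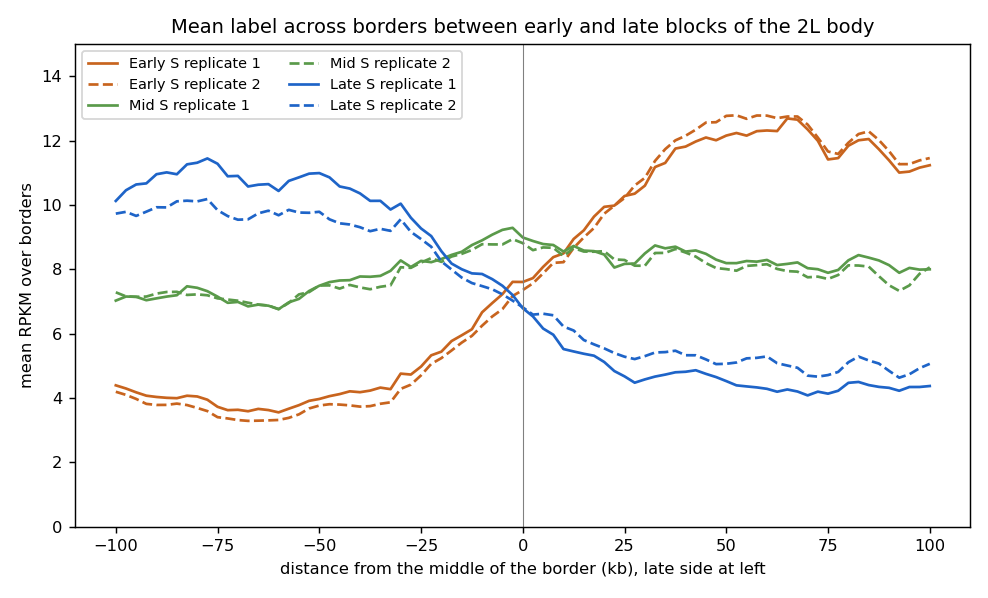
Mean RPKM of each library over the 49 borders between early and late blocks of the 2L body, against the distance in kb from the middle of the border, turned so that the late side is at the left. Solid lines are replicate 1 and dashed lines replicate 2; Early S (orange) and Late S (blue) cross near the middle, near where Mid S (green) has its highest values.

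Some parts of the arm belonged to no block. The longest, 337.5 kb from 6497501 to 6835000, had Early S at 6.93 and 6.71 RPKM, Mid S at 9.05 and 8.56, and Late S at 7.64 and 7.31. Mid S led in 65.2% of its windows, and 12 were called highest in Mid S. The next, 315 kb from 9380001 to 9695000, had Early S at 5.51 and 5.49, Mid S at 7.12 and 7.28, and Late S at 7.05 and 7.01, and Mid S led in 50.4% of its windows. In this second stretch 1 window was called highest in Mid S, and 57.7% of windows were called higher in Late S than in Early S. In both stretches, the 2 Mid S libraries lay above the Early S libraries without overlap, while in the latter Mid S and Late S differed little. How often Mid S led rests on the scaling named above.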

How the data were processed

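Per the file headers, the authors deposited values in RPKM for 10 kb windows every 2.5 kb, 1 file per library and 3 combined files. For the aligner, read filters and genome build: not given in the sources used here. Sequence names are of the Release 5 type, and the gene table at hand is of another release, so no gene positions, GC content or sequence were used. In windows of full width, 100% of values were whole multiples of 1 read within 0.02 reads, which gave each library's reads. A count of 0 allows up to 3 reads, or 0.102 to 0.217 RPKM, counting error only. The combined files, equal to the read-weighted mean of the replicates within 9.95e-14 RPKM, were not used further.

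Of 55900 windows, 2466 had no reads in any library and were left out. limma 3.58.1 (R 4.3.3) was fitted to log2(RPKM + 0.0341) of all 6 libraries and 53434 windows, with 3 fraction means, a mean-variance trend and two-sided tests. In simulated data 200 of 53434 windows were changed, none of them among the lowest, by sizes of up to 2. It called 100% of those of size 2 in Early S against Late S. Beyond counting error, the simulated libraries were given a spread below the median SD of the Early S replicates. Far fewer windows were changed there than were called in the real data. The result does not speak to smaller changes or to false calls. Medians per arm, side and segment were tested by exact permutation in Python 3.11.15 (NumPy 2.4.6, pandas 2.3.3), and plots used matplotlib 3.10.9. The text names all segments, in each direction the 8 longest blocks and those 3 of at least 5 windows that differ most, up to 5 of the longest Mid S runs, the 5 steepest borders and the longest stretches without a block. The region, these rules and the tests were chosen with earlier results of these data known. Alternatives were quantile normalization, centring, other pseudocounts, a filter on low windows, windows that do not overlap, voom on recovered reads, a replicate block and leaving out each library.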

Additional observations from a re-analysis of the deposited data

How the results depend on the processing

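The shares called in Early S against Late S on 2L stayed within 33.0% to 39.2% (Early S) and 45.0% to 49.3% (Late S) under all 14 alternatives. Quantile normalization moved Mid S above Early S to 24.4%, the windows called highest in Mid S to 4.92%, and ended the calls of the arm median (-0.25, exact permutation p 0.133) and of 2L against X (-0.42, adjusted p 0.0667), 3L (-0.19, 0.200) and 3R (-0.063, 0.667; exact permutation). Centring libraries on their medians, which shifts the median Early S minus Late S of all windows by 0.14 (quantile normalization by 0.20), moved Early S above Mid S to 30.9%, Early S called highest to 30.2%, and Mid S to 7.98% by mean and 0.172% by call. A block threshold of 2 left 48 early blocks with 2.04 Mb and late blocks with 5.41 Mb. The segment from 12000001 turned to 0.10 with means in place of medians (adjusted p 0.0311, exact permutation).

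Leaving out 1 library at a time, which leaves 1 in that fraction, assumed to vary like the others, gave 10.6% to 22.4% for Early S above Mid S, 10.5% to 22.2% for Early S called highest, 23.0% to 36.0% for Mid S above Late S, and 0.271% to 2.51% for Mid S called highest. The permutation results ranged from -0.32 to -0.24 for the arm median, -0.54 to -0.47 against X, -0.30 to -0.27 against 3L, -0.16 to -0.13 against 3R and -0.82 to -0.74 between the sides. Their p was 0.0667, the smallest possible, without a Mid S library and 0.0333 without any other (exact permutation). Between 0 and 15 segments passed, 0 of them without either Mid S library or Late S replicate 2. Same-numbered libraries of different fractions correlated at -0.0308 to 0.211 in their deviations, so the numbers were not taken as pairs. With the replicate block, the shares in Early S against Late S were 37.0% and 49.2%, and no count of calls moved by over 1.5 times. Depth limits windows of few reads: 38 windows of the 2L body held under 60 reads over all libraries.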

Other observations

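Label summed over the 3 fractions was not even along the 2L body. In the 9 segments from 1000001 to 10000000 the median sum ran from 16.6 to 22.2 RPKM, and in the 12 segments beyond from 23.7 to 31.6 RPKM, without overlap. Each replicate number alone gave 16.7 to 22.6 and 16.5 to 22.3 before that border, and 23.4 to 31.2 and 23.6 to 31.2 beyond it. The border of 10 Mb was chosen after these values were seen, so no test is given. Windows called higher in Early S held Early S label of 10.0 and 10.4 RPKM before it and 14.2 and 13.8 beyond it. Windows called higher in Late S held 9.64 and 8.67 RPKM in the Late S libraries before it and 13.8 and 12.9 beyond it. The leading fraction was thus higher beyond 10 Mb in early and in late windows alike, while the Early S minus Late S difference was 1.38 before and 1.34 beyond in early windows and went from -1.66 to -2.31 in late windows. Segment sums on the bodies of X, 3L and 3R ran from 11.1 to 29.1, 17.9 to 30.1 and 20.7 to 29.9 RPKM. The cause was not tested.

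The highest Early S and Mid S values of the body lay in the same window, from 19170001 to 19180000, with Early S at 33.9 and 36.2 RPKM, Mid S at 26.6 and 25.9, and Late S at 15.7 and 17.8. The highest Late S window ran from 17982501 to 17992500, with 36.9 and 39.2 RPKM in Late S, 19.5 and 19.3 in Mid S, and 10.3 and 8.87 in Early S. It lies inside the longest late block, and all 3 fractions were above the means of that block there.

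Windows without reads in any library numbered 65, of which 26 lay from 15655001 to 15727500 and 26 at the centromere-side edge of the body, from 21427501 to 21500000. A count of 0 in each library allows up to 3 reads. The other 13 were single windows or short runs of at most 5.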
